A study of Mus musculus with 6 samples.

Results

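The genes described here are 51 enzymes and regulators of glutathione metabolism, antioxidant defence and xenobiotic metabolism: the glutathione transferases (GSTs), the enzymes that make and recycle glutathione, peroxidases, peroxiredoxins and superoxide dismutases, targets of the transcription factor NRF2, and carboxylesterases, aldehyde oxidases and other oxidising or reducing enzymes. Members were chosen by symbol, each from the rows of the deposited expression table whose name field holds it, and the list was proposed from earlier results of the comparison reported here. Counts and calls over the members are therefore descriptions and support nothing on their own. Of the 51 members, 45 have a row among the 31097 rows of the table, and Gsta3, Gstm1, Gstm2, Gstm4, Gpx8 and Txnrd1 were not analysed here. The test was run on the 10515 rows whose average over all libraries was 0.5 FPKM or more, and 39 members were among them. FPKM (fragments for each kilobase of a transcript, corrected for the number mapped in the library) is the unit inferred for the table, and because it is per length, levels can be set side by side between genes.

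RNA was sequenced from 3T3-F442A, a mouse preadipocyte line that the labels call an adipocyte line, in 3 WT libraries from the parental line, in which SWELL1 is intact, and in 3 SWELL1 KO libraries. SWELL1, official symbol Lrrc8a, encodes an obligatory subunit of the volume-regulated anion channel, and it was disrupted with CRISPR/Cas9 in the parental line to give lines described as isogenic. The medium of both groups was RPMI with 10% FBS, TRIZOL was used to take RNA, and the labels call the 3 libraries of a group biological replicates. Whether the KO libraries come from 1 clone, whether the cells were differentiated, and what the mark D3 in the KO sample names stands for was not learned from the labels, so KO minus WT holds the genotype together with those unknowns. A p-value here measures spread among 6 libraries.

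By estimate, the WT libraries held 17.1 to 20.8 M fragments and the KO libraries 18.4 to 25.9 M. The row that holds Lrrc8a is shared with Nup188 and Phyhd1, at 32.5, 35.0 and 33.2 FPKM in WT and 28.8, 28.0 and 27.3 in KO, so it does not check the labels by itself. The 8 fibroblast markers summed to 5096 to 5659 FPKM in WT and 4738 to 4860 in KO, and all 8 were called, 5 lower, such as Lum (log2 difference -1.89), and 3 higher, such as Pdgfrb (0.50). Of the adipocyte markers, Fabp4 had 188, 156 and 133 FPKM in WT but 2.45, 3.48 and 4.37 in KO, and Adipoq, Pparg and Plin1 reached at most 2.49 FPKM in any library. The 7 adipocyte markers with a row summed to 276 to 358 FPKM in WT and 106 to 152 in KO, and 4 of the 5 tested were called lower. Of these, Adipoq, Pparg and Plin1 passed the filter on low values through the WT level alone, so their direction was bound to appear. Fabp4 and Lpl reached 0.5 FPKM on average in both groups, and Lpl was not called. Of 8 hepatocyte markers, Alb, Apoa1, Ttr and Serpina1a were listed at 0 in all 6 libraries, and the summed level of the list was at most 0.216 FPKM. Endothelial markers summed to 0.456 to 0.659 FPKM in WT and 2.06 to 2.45 in KO, mostly Vwf, with Cldn5 at 0. Epithelial markers summed to 4.38 to 4.49 FPKM in WT, mostly Krt7, and 1.69 to 1.89 in KO, mostly Krt8, with Epcam at 0. Macrophage markers summed to at most 30.7 FPKM, nearly all Cd14, with Csf1r at 0 and Lyz2 called lower (log2 difference -1.59). Lyz2 also passed the filter through the WT level alone. The part of these markers in the values of the members was not tested. Over all rows tested, 65.2% were called between the groups by limma at an adjusted p of 0.05, 28.5% higher in KO and 36.7% lower, and the values of the groups did not overlap in 71.8%.

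Glutathione is a thiol tripeptide that cells use to reduce peroxides and to tag reactive compounds for export. The transcription factor NRF2 (gene Nfe2l2) is held low by KEAP1, which presents it for degradation, and oxidants or electrophiles that modify KEAP1 release NRF2 to activate genes of glutathione synthesis, thioredoxin recycling and quinone reduction through antioxidant response elements. GSTs join glutathione to electrophiles, while phase I enzymes such as aldehyde oxidases, carboxylesterases and cytochromes P450 oxidise, hydrolyse or reduce drugs and endogenous lipids and aldehydes.

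Most tested members were higher in the KO libraries. Of the 39, 22 were called higher, 7 lower and 10 were not called. These are 56.4% called higher, beside 28.5% of all rows, and 17.9% called lower, beside 36.7% of all rows. The median log2 difference, KO minus WT on the log2(FPKM + 0.5) scale, was 0.38 for the members and -0.07 for all rows tested. The groups did not overlap for 29 members, 74.4% of those tested, near the 71.8% of all rows. In these bulk libraries, a change in the number of cells that express a gene and a change in RNA per cell cannot be told apart. Only 35 of the tested members reached 0.5 FPKM on average in both groups: Gstk1, Aox3, Ces1f and Aldh3a1 passed through the KO level alone, so a difference was bound to appear for them. Around the filter, Aldh3a1 was the lowest member inside it, at 0.0971 FPKM on average in WT and 1.13 in KO, and Gstt2 the highest outside it, at 0.143 and 0.468.

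**Figure D1:**
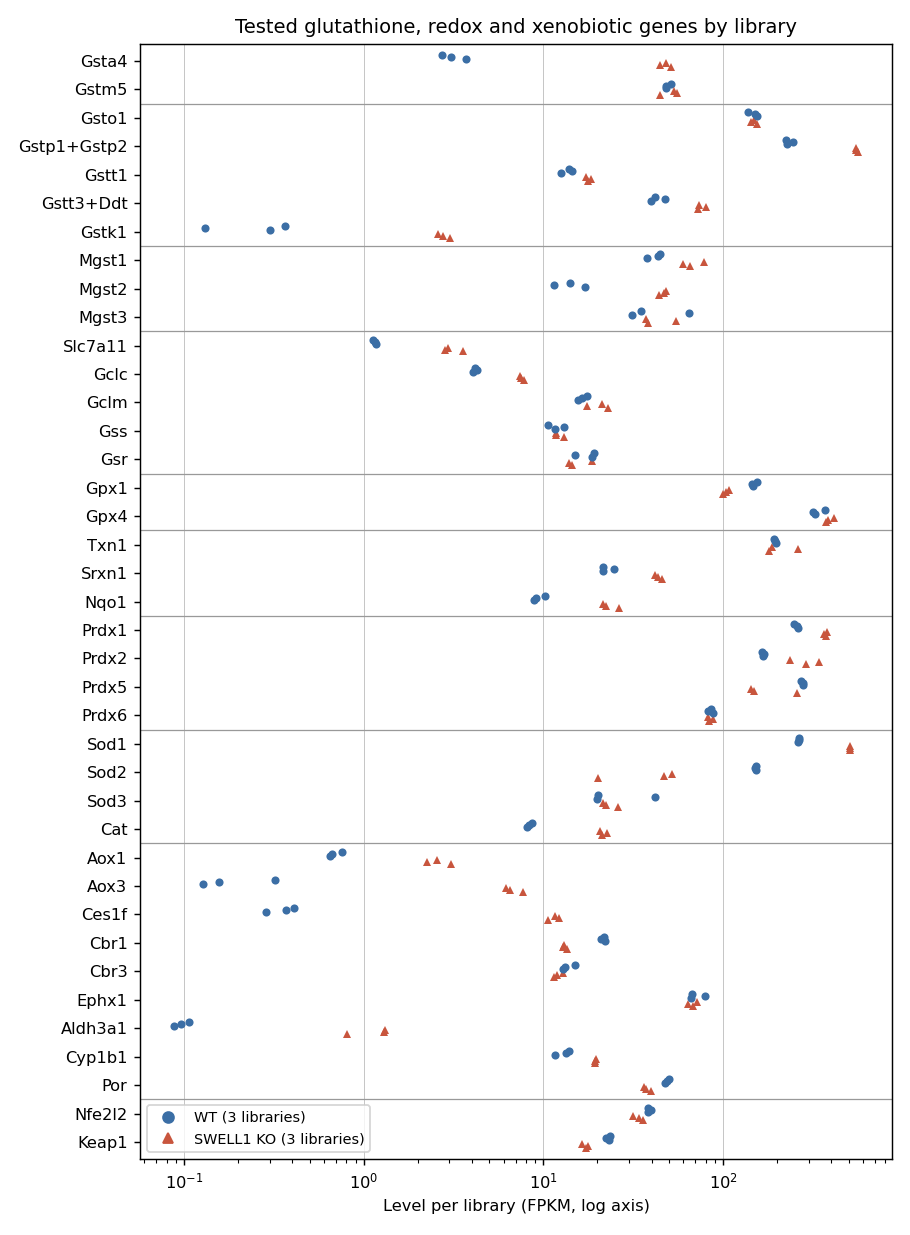
FPKM (log axis) of the 39 tested members in each of the 3 WT libraries (circles) and 3 SWELL1 KO libraries (triangles), grouped by role from the transferases at the top to NRF2 and KEAP1 at the bottom. Gsta4, Gstk1, Aox3, Ces1f and Aldh3a1 are the members with the widest gaps between the groups, and Sod2 is the widest gap in the other direction.

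**Figure D2:**
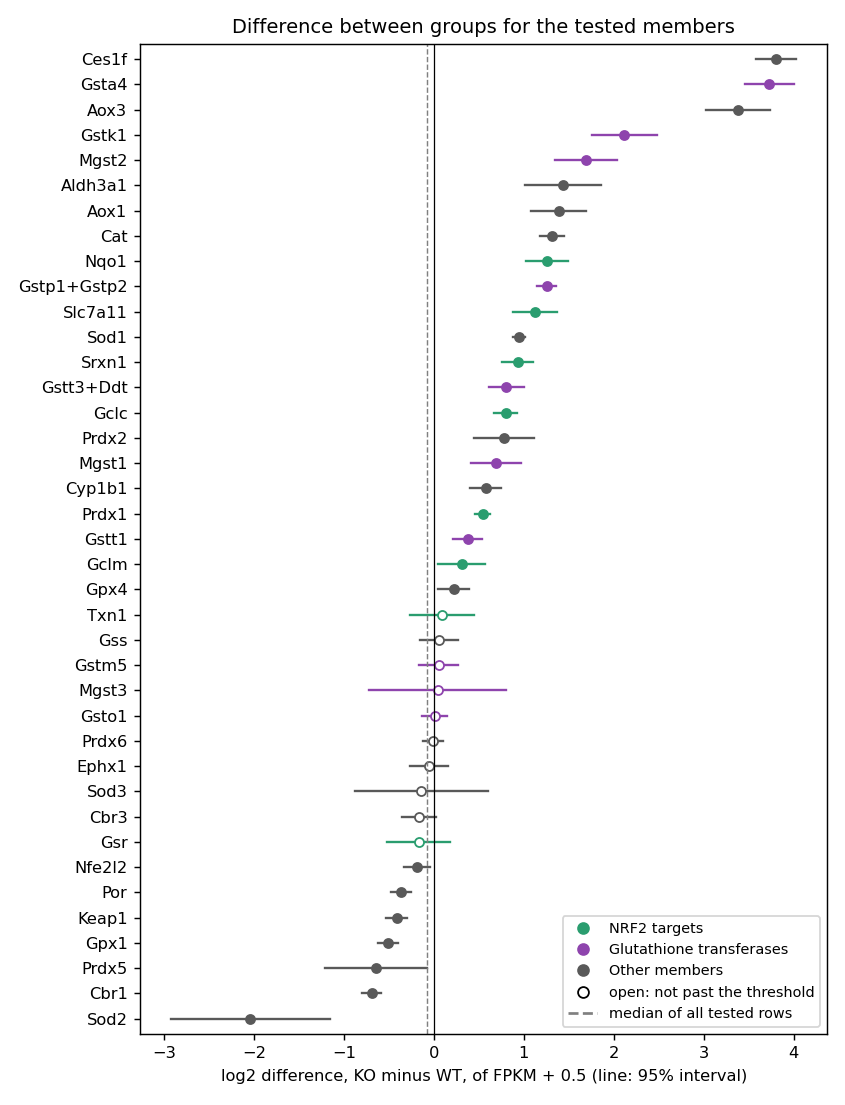
The log2 difference, KO minus WT, of FPKM + 0.5 for the 39 tested members with its 95% interval, ordered by size; filled points passed the adjusted p of 0.05 and the dashed line is the median of all tested rows, -0.07. Both the NRF2 targets and the transferases lie on or right of 0, with Gsr as the member of the NRF2 targets left of it.

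The transcripts of NRF2 and of its inhibitor were both lower in KO. Nfe2l2 had 38.0, 39.6 and 38.4 FPKM in WT, with replicates given in the order 1, 2, 3 here and in what follows, and 31.4, 34.2 and 35.9 in KO. The groups did not overlap, and the log2 difference was -0.19 ± 0.06 (SE; limma, adjusted p = 0.0272). The Nfe2l2 call was lost in 8 of 15 alternative settings (other pseudocounts, filters, scalings, variance models, a replicate block or a library left out): after quantile normalization the difference was -0.03 and the adjusted p 0.700. Keap1, the adaptor that brings NRF2 to the CUL3 ubiquitin ligase, was at 23.4, 22.4 and 23.2 FPKM in WT and 16.3, 17.8 and 17.3 in KO. Every KO library lay below every WT library, with a log2 difference of -0.42 ± 0.05 (limma, adjusted p = 0.000475), and 10 of the 18 tested rows within 500 kb of Keap1 were also called lower.

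Of the 9 members listed here as NRF2 targets other than transferases, 8 were tested. Of these, 6 were called higher, none lower, and Txn1 and Gsr were not called, beside 28.5% of all rows called higher and 36.7% lower. Their median log2 difference was 0.67, beside -0.07 for all rows. The list was chosen with earlier results known. Other members may also be NRF2 targets, so these counts and the median hold for the list only. Nqo1, which reduces quinones to hydroquinones and is a classic readout of NRF2, was at 10.2, 9.15 and 8.92 FPKM in WT and 21.4, 22.3 and 26.3 in KO. The KO mean was 2.47 times the WT mean, with no overlap (log2 difference 1.26 ± 0.09, limma adjusted p = 9.93e-05). Slc7a11, the cystine importer that supplies cysteine for glutathione, was at 1.13, 1.15 and 1.17 FPKM in WT and 2.94, 2.85 and 3.55 in KO, a ratio of means of 2.71 (log2 difference 1.13 ± 0.10, limma adjusted p = 0.000176). The WT libraries of Slc7a11 lay close together and far below the lowest KO library.

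Srxn1, sulfiredoxin, which repairs over-oxidised peroxiredoxins, was at 21.6, 24.7 and 21.6 FPKM in WT and 41.6, 43.5 and 45.5 in KO. Its KO mean was 1.92 times the WT mean (log2 difference 0.93 ± 0.07, limma adjusted p = 9.03e-05), and the 8 tested rows within 500 kb of it included 5 called lower and 1 called higher. Gclc, the catalytic subunit of the enzyme that limits glutathione synthesis, was at 4.14, 4.27 and 4.04 FPKM in WT and 7.40, 7.47 and 7.85 in KO, a ratio of 1.83 (log2 difference 0.80 ± 0.05, limma adjusted p = 5.71e-05). The libraries of each group lay close together, and the groups were well apart.

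Gclm, the modifier subunit of the same enzyme, moved less than Gclc. It was at 17.4, 16.4 and 15.6 FPKM in WT and 21.2, 17.6 and 23.0 in KO, so the lowest KO library lay just above the highest WT library. Its log2 difference of 0.31 ± 0.11 had an adjusted p of 0.0438 (limma), and the call was lost in 7 of the 15 alternative settings, with an adjusted p of up to 0.170. The row of Gclm also carries the predicted gene Gm6061.

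Prdx1, a cytosolic peroxiredoxin that reduces hydrogen peroxide with thioredoxin, was at 249, 257 and 262 FPKM in WT and 378, 364 and 375 in KO, with no overlap (ratio of means 1.45, log2 difference 0.54 ± 0.03, limma adjusted p = 4.49e-05). Txn1, cytosolic thioredoxin, was at 192, 195 and 196 FPKM in WT and 188, 261 and 179 in KO. KO replicate 2 was above all WT libraries and replicates 1 and 3 below them, and the log2 difference of 0.09 had a 95% interval of -0.27 to 0.44 (limma, adjusted p = 0.620). Gsr, the reductase that regenerates glutathione, was at 19.1, 15.04 and 18.5 FPKM in WT and 18.6, 13.8 and 14.4 in KO, with overlapping groups and a difference of -0.17 (interval -0.52 to 0.18, limma adjusted p = 0.334).

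**Figure D3:**
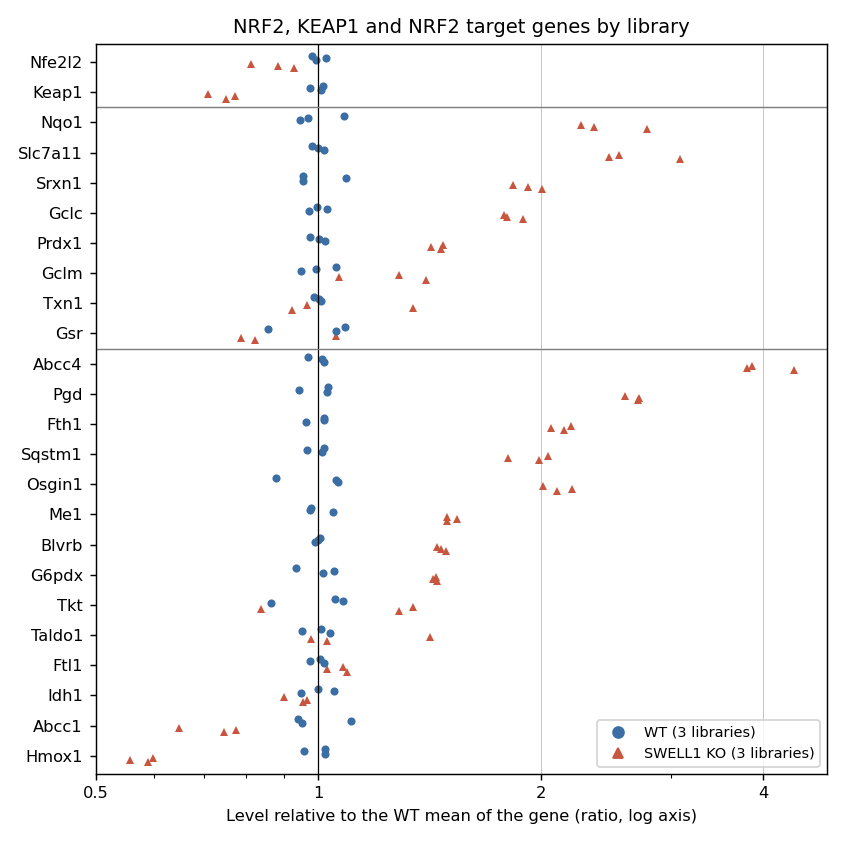
Each library's level divided by the WT mean of the gene (ratio, log axis). The genes are Nfe2l2 and Keap1, the 8 tested members listed as NRF2 targets and 14 other listed NRF2 targets. Circles are WT and triangles SWELL1 KO. Nqo1, Slc7a11, Srxn1, Gclc and Prdx1 have all 3 KO libraries above 1 and apart from WT, whereas Hmox1 and Abcc1 have all 3 below.

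NRF2 binds antioxidant response elements, whose core was searched as the letters TGACNNNGC on both strands of promoters (250 bases before to 50 after the start site, RefSeq, GRCm38.p6). It occurred in 12.4% of 32851 promoters and in 9 of the 54 promoters found for 43 of the members, or 16.7% (exact 95% interval 7.92 to 29.3%). By call, 5 of 18 members called higher with a promoter in the table, 1 of 7 called lower and 1 of 7 not called had it. The 7 tested members with the core are shown to let the letters be compared across calls, 5′ to 3′ on the strand of the gene with the core in capitals (as its reverse complement where it lies on the other strand). They are Gclm at chr3:122245403-122245451 (+), Prdx1 at chr4:116685446-116685494 (+), Mgst1 at chr6:138140451-138140499 (+), Sod1 at chr16:90220686-90220734 (+), Srxn1 at chr2:152105542-152105570 (+), Gstm5 at chr3:107895792-107895840 (+) and Nfe2l2 at chr2:75704875-75704913 (-).
Gclm: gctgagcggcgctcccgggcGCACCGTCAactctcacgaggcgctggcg
Prdx1: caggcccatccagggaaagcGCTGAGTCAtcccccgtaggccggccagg
Mgst1: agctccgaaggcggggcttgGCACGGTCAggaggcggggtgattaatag
Sod1: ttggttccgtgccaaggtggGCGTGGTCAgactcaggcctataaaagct
Srxn1: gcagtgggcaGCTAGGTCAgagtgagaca
Gstm5: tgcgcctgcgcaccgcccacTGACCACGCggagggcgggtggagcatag
Nfe2l2: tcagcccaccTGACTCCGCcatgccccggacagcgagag
Gclm, Prdx1, Mgst1, Sod1 and Srxn1 were called higher, Gstm5 was not called and Nfe2l2 was called lower. Nqo1 and Slc7a11, the largest increases among the NRF2 targets, do not have these letters in this window.

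Of the 15 transferase genes, 10 were tested: 7 were called higher, none lower, and 3 were not called, beside 28.5% of all rows called higher and 36.7% lower. Their median log2 difference was 0.75, beside 0.67 for the NRF2 targets and -0.07 for all rows. The difference between the medians, -0.08 (NRF2 targets minus transferases), was not tested, and by KO replicate the medians against the WT mean were 0.66, 0.64 and 0.70 for the NRF2 targets and 0.83, 0.71 and 0.70 for the transferases. Of the 10 rows, 2 are shared with another gene, and without them 5 of 8 were called higher and the median was 0.53. Gstk1, counted as higher, passed the filter on low values through the KO level alone, so its direction was bound to appear. The other 9 transferases and all 8 NRF2 targets reached 0.5 FPKM on average in both groups. Without Gsta4 and Gstk1, the largest increases, 5 of 8 transferases were called higher and the median was also 0.53. The transferases were the more uneven set, from 0.01 for Gsto1 to 3.73 for Gsta4, against -0.17 to 1.26 for the NRF2 targets.

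Gsta4, an alpha-class transferase known for conjugating 4-hydroxynonenal, an aldehyde from oxidised lipid, was at 2.74, 3.04 and 3.72 FPKM in WT and 48.0, 44.7 and 51.1 in KO. Its mean was 15.1 times higher in KO, 47.9 ± 3.18 against 3.17 ± 0.503 FPKM (SD, n = 3 each), with a log2 difference of 3.73 ± 0.11 (limma, adjusted p = 5.24e-06). It ranked 55 among the increases of all rows tested, and none of its 50-base stretches occurs in another annotated gene. Gsta4 lies at chr9:78191966-78209349, and the neighbouring alpha genes were chosen after their values were seen. Gsta1 was at 0.0393, 0.106 and 0.0325 FPKM in WT and 3.24, 2.15 and 2.39 in KO, a log2 difference of 2.46 (limma, adjusted p = 6.21e-05). Gsta2 was at 0.0395, 0.0356 and 0.0327 FPKM in WT and 3.66, 1.52 and 1.92 in KO, a log2 difference of 2.35 (limma, adjusted p = 0.000630). Both passed the filter on low values through the KO level alone, so their direction was bound to appear, and 89.7% and 64.2% of the 50-base stretches of Gsta1 and Gsta2 occur in other genes, mainly each other and predicted copies, so reads may have been split between them. All 3 alpha genes were higher in every KO library than in any WT library, and of 9 tested rows within 500 kb of Gsta4 the 4 called higher were Fbxo9, Gclc, Gsta1 and Gsta2, while 3 were called lower.

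Gstp1, the pi-class enzyme and the most abundant transferase here, shares its row with Gstp2, and 62.3% of the 50-base stretches of Gstp1 also occur in other genes, so the value covers both copies. The row was at 225, 245 and 227 FPKM in WT and 549, 551 and 566 in KO. The KO libraries lay close together, at 2.39 times the WT mean on average (log2 difference 1.26 ± 0.04, limma adjusted p = 7.09e-06). Mgst2, a membrane-bound transferase that can also make leukotriene C4, was at 14.1, 11.4 and 17.0 FPKM in WT and 47.9, 46.9 and 43.8 in KO, a ratio of 3.27 with no overlap (log2 difference 1.69 ± 0.14, limma adjusted p = 0.000145). Gstk1, the kappa-class enzyme of mitochondria and peroxisomes, was at 0.364, 0.131 and 0.301 FPKM in WT and 2.60, 2.78 and 3.02 in KO, a ratio of 10.5 (log2 difference 2.12 ± 0.15, limma adjusted p = 7.44e-05). The WT values of Gstk1 rest on about 3.5 to 8.75 fragments per library.

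Gstt3 is read from a row it shares with Ddt, D-dopachrome tautomerase, and Gm20441, so its own level is not separable. That row was at 41.9, 47.5 and 39.6 FPKM in WT and 73.1, 80.3 and 72.7 in KO (log2 difference 0.81 ± 0.08, limma adjusted p = 0.000293). Mgst1, a membrane transferase with peroxidase activity, was at 44.5, 43.2 and 37.9 FPKM in WT and 77.9, 60.2 and 65.8 in KO (log2 difference 0.69 ± 0.11, limma adjusted p = 0.00234). Gstt1, a theta-class enzyme, was at 13.8, 14.5 and 12.5 FPKM in WT and 17.2, 18.5 and 17.7 in KO, a smaller step with no overlap (log2 difference 0.38 ± 0.07, limma adjusted p = 0.00327). Gstt1 and the Gstt3 row lie on chromosome 10, where the median difference of 445 tested rows was 0.37, as large as that of Gstt1. Within 500 kb, 5 of 7 other tested rows were called higher around Gstt1 (median 0.81) and also around the Gstt3 row (median 0.76). Each of these counts includes the other of the 2 rows. The part of the chromosome and local shifts in these calls was not tested.

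The 3 transferases not called are among the well expressed ones. Gsto1, an omega-class enzyme with thiol transferase activity, was at 138 to 154 FPKM in WT and 143 to 154 in KO (log2 difference 0.01, interval -0.13 to 0.14). Gstm5, the mu-class member measured here, was at 47.9 to 51.1 FPKM in WT and 44.6 to 55.4 in KO (0.05, interval -0.17 to 0.27). Mgst3 was at 34.8, 65.0 and 31.2 FPKM in WT and 37.4, 54.4 and 38.0 in KO, with replicate 2 the highest in both groups and a wide interval of -0.72 to 0.81. Gstt2 was not tested, at 0.230, 0.0830 and 0.114 FPKM in WT and 0.538, 0.521 and 0.346 in KO, with no overlap at about 3.58 to 30.4 fragments per library.

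Among enzymes that remove superoxide and peroxide, members moved in both directions. Catalase (Cat), the peroxisomal enzyme that splits hydrogen peroxide, was at 8.63, 8.35 and 8.12 FPKM in WT and 20.6, 22.7 and 21.3 in KO, 2.57 times higher on average (log2 difference 1.31 ± 0.05, limma adjusted p = 1.14e-05). Sod1, the cytosolic copper-zinc superoxide dismutase, was at 266, 266 and 262 FPKM in WT and 510.1, 507 and 512 in KO, a ratio of 1.93 with the smallest SE of all tested members (log2 difference 0.94 ± 0.03, limma adjusted p = 4.07e-06). Both had tight groups that lay far apart, and 23.1% of the 50-base stretches of Sod1 also occur in another annotated gene, Gm8566.

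Sod2, the manganese superoxide dismutase of mitochondria, went the other way. It was at 153, 151 and 153 FPKM in WT and 51.8, 46.8 and 20.1 in KO, and the highest KO library was 2.58 times the lowest, replicate 3. The WT mean was 3.84 times the KO mean, the largest decrease among the members (log2 difference -2.04 ± 0.36, limma adjusted p = 0.00324). Without KO replicate 3 the log2 difference was -1.62 and the adjusted p 6.92e-05. Sod3, the extracellular enzyme, was at 20.1, 41.7 and 19.9 FPKM in WT and 21.4, 22.4 and 25.9 in KO, where WT replicate 2 alone was above the rest (log2 difference -0.14, interval -0.88 to 0.60).

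Of the glutathione peroxidases, which use glutathione to reduce peroxides, Gpx1 and Gpx4 were expressed. Gpx1, the general cytosolic enzyme, was at 154, 145 and 146 FPKM in WT and 108, 104 and 99.6 in KO, lower in every KO library (log2 difference -0.51 ± 0.05, limma adjusted p = 0.000187), and 17 of the 23 tested rows within 500 kb of it were called lower as well. Gpx4, which reduces lipid peroxides in membranes, was at 368, 317 and 325 FPKM in WT and 415, 383 and 375 in KO, with a narrow gap between the groups (log2 difference 0.22 ± 0.07, limma adjusted p = 0.0376). The Gpx4 call was lost in 6 of the 15 settings, with an adjusted p of up to 0.152, its difference is below the chromosome 10 median of 0.37, and 61.7% of its 50-base stretches also occur in other genes such as a Gpx4 pseudogene. Gpx3 and Gpx7 were at most at 0.0774 and 0.0988 FPKM in any library and were not tested.

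The other peroxiredoxins, which reduce peroxides through a reactive cysteine, were unlike each other. Prdx2, another cytosolic form, was at 165, 168 and 166 FPKM in WT and 235, 344 and 291 in KO, with a wide KO group that lay wholly above WT (log2 difference 0.78 ± 0.13, limma adjusted p = 0.00307). Of the 50-base stretches of Prdx2, 23.8% also occur in other genes, among them Tdpx-ps1, Junb and Rnaseh2a. Prdx5, found in mitochondria, peroxisomes and cytosol, was at 272, 277 and 279 FPKM in WT and 143, 148 and 257 in KO, where replicate 3 lay close to WT. Its log2 difference of -0.65 ± 0.23 had an adjusted p of 0.0484 (limma), the call was lost in 11 of the 15 settings, with an adjusted p of up to 0.208, and without KO replicate 3 the difference was -0.92 with an adjusted p of 7.93e-05. Part of the Prdx5 transcript, 29.7% of its 50-base stretches, overlaps Trmt112, which was at 81.9, 87.4 and 84.5 FPKM in WT and 58.0, 55.9 and 53.4 in KO. Prdx6, with peroxidase and phospholipase activity, was at 82.0 to 88.2 FPKM in WT and 82.2 to 87.5 in KO (log2 difference -0.01, interval -0.12 to 0.09).

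Gss, glutathione synthetase, was at 10.6, 13.0 and 11.6 FPKM in WT and 11.8, 11.7 and 13.0 in KO, with overlapping groups (log2 difference 0.05, interval -0.16 to 0.27, limma adjusted p = 0.603). Gss lies at chr2:155563181-155592810, and 14 of the 15 other tested rows within 500 kb of it were called lower, with a median log2 difference of -0.80. The position of Gss among rows that fell is a description, and no test of it was run. Nqo2, another quinone reductase, was listed at 0 in all 6 libraries.

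Among the tested members, the largest ratios of means were those of 2 xenobiotic enzymes, both from WT levels under 1 FPKM. Ces1f, a carboxylesterase that hydrolyses esters and lipids, was at 0.409, 0.369 and 0.286 FPKM in WT and 11.6, 12.2 and 10.5 in KO, a ratio of means of 32.2 (log2 difference 3.80 ± 0.09, limma adjusted p = 3.10e-06). It ranked 51 among the increases of all rows. Aox3, an aldehyde oxidase, was at 0.322, 0.157 and 0.127 FPKM in WT and 6.16, 6.54 and 7.74 in KO, a ratio of 33.7 (log2 difference 3.38 ± 0.14, limma adjusted p = 1.32e-05). The WT levels rest on about 11.5 to 13.6 fragments per library for Ces1f and 12.2 to 25.4 for Aox3, so these ratios carry large counting error.

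Aox1, the aldehyde oxidase gene next to Aox3, was at 0.761, 0.666 and 0.646 FPKM in WT and 2.56, 2.25 and 3.07 in KO, a ratio of 3.80 (log2 difference 1.39 ± 0.12, limma adjusted p = 0.000189). Aldh3a1, an aldehyde dehydrogenase best known from the cornea, was at 0.107, 0.0963 and 0.0883 FPKM in WT and 1.31, 1.29 and 0.803 in KO (log2 difference 1.44 ± 0.17, limma adjusted p = 0.000641), with about 3.16 to 3.18 fragments in each WT library. All WT libraries of both genes lay below all KO libraries, but Aldh3a1 passed the filter on low values through the KO level alone.

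Relatives of Ces1f and Aox3, chosen after their values were seen, were read in the same way. Of the 50-base stretches of a gene, at most 4.87% (Ces1a) occur in another annotated gene among Ces1a, Ces1d, Ces1f and Ces1g, and none of Aox1 or Aox3. Ces1a, at 0.0610, 0.0550 and 0.0504 FPKM in WT, was at 3.43, 4.43 and 2.55 in KO (log2 difference 2.81, limma adjusted p = 6.33e-05). Ces1g was at 0.0746, 0.0673 and 0.123 FPKM in WT and 2.10, 2.02 and 1.85 in KO (2.08, limma adjusted p = 2.87e-05), and Ces1d was listed at 0, 0.248 and 0.0249 in WT and at 1.27, 1.19 and 0.933 in KO. The 3 rows tested within 500 kb of Ces1f, at chr8:93256236-93279766, were these 3, and all were called higher; all 3 passed the filter on low values through the KO level alone, so that direction was bound to appear. Ces1b and Ces1c were listed at 0 in all libraries, Aox3l1 and Aox4 reached at most 0.0477 and 0.0413 FPKM, and the carboxylesterase Ces2g, a member from another subfamily, reached at most 0.0771 FPKM.

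**Figure D4:**
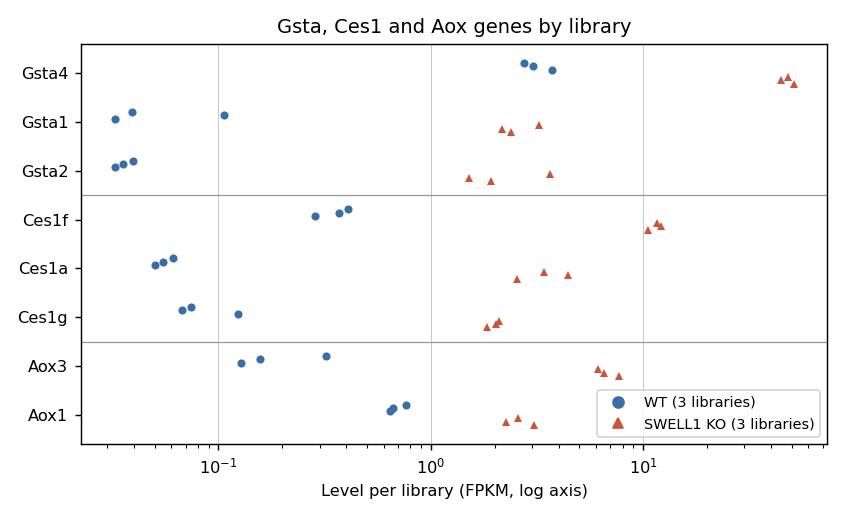
FPKM (log axis) in each WT library (circles) and SWELL1 KO library (triangles) of 8 alpha transferases, Ces1 carboxylesterases and aldehyde oxidases; Ces1d, with a WT library at 0, cannot be drawn on the log axis. In each of the 8 genes the lowest KO library lies above the highest WT library, while the KO levels differ from 1.52 FPKM (Gsta2, replicate 2) to 51.1 FPKM (Gsta4, replicate 3). Gsta1, Gsta2, Ces1a, Ces1f, Ces1g and Aox3 passed the filter on low values through the KO level alone, so their direction was bound to appear. Over all rows tested, the groups did not overlap in 71.8%. Gsta1, Gsta2, Ces1a and Ces1g were chosen after their values were seen.

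Cyp1b1, a cytochrome P450 induced through the aryl hydrocarbon receptor, was at 13.8, 13.4 and 11.6 FPKM in WT and 19.7, 19.5 and 19.3 in KO (log2 difference 0.57 ± 0.07, limma adjusted p = 0.000751). The KO libraries lay close together and above WT. Other genes of that receptor were a short list of 6, of which 2 were tested: Tiparp, a known target, was at 11.1, 10.5 and 11.4 FPKM in WT and 16.8, 16.5 and 16.2 in KO (0.57, limma adjusted p = 0.000156), Ahr was not called, and Cyp1a1 and Cyp1a2 were at most at 0.0212 FPKM.

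The core that the receptor binds, GCGTG, was searched on both strands of the same promoters and occurred in 32.4% of all promoters and in 28 of 54 member promoters (51.9%, exact 95% interval 37.8 to 65.7%). Members called higher had it in 9 of 18, those called lower in 6 of 7 and those not called in 4 of 7. Windows are shown for both aldehyde oxidases and Cyp1b1, which are among the 9 called higher and were chosen after their values were seen. Their log2 differences were unlike, at 1.39 (Aox1), 3.38 (Aox3) and 0.57 (Cyp1b1), and Aox3 passed the filter on low values through the KO level alone. The core is in capitals: Aox1 at chr1:58029812-58029856 (+), Aox3 at chr1:58112991-58113035 (+) and Cyp1b1 at chr17:79715113-79715157 (-).
Aox1: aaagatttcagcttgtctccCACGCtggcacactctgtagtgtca
Aox3: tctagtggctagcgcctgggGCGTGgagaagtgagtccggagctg
Cyp1b1: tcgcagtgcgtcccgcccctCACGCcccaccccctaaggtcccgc
For both cores, the 54 member promoters belong to 43 genes, so the intervals treat promoters of the same gene as independent. The promoters of all genes were not matched to the members in base composition or expression, so the shares do not test enrichment. A match is a description of letters and says nothing of binding in these cells.

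Por and Cbr1 were the phase I members called lower. Por, the reductase that passes electrons to microsomal cytochromes P450, was at 50.1, 48.9 and 47.7 FPKM in WT and 36.5, 37.2 and 39.7 in KO (log2 difference -0.37 ± 0.05, limma adjusted p = 0.000741). Cbr1, which reduces carbonyl compounds, was at 21.7, 20.9 and 21.9 FPKM in WT and 12.9, 12.8 and 13.5 in KO, and the WT mean was 1.64 times the KO mean (log2 difference -0.69 ± 0.04, limma adjusted p = 4.47e-05). Groups of both genes were far apart relative to their spread.

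Cbr3, its neighbouring paralogue, was at 14.98, 13.2 and 12.8 FPKM in WT and 12.9, 11.8 and 11.5 in KO, where the groups overlapped at 1 library each and the interval of the difference was -0.36 to 0.02 (limma, adjusted p = 0.106). Ephx1, microsomal epoxide hydrolase, was at 65.9 to 79.5 FPKM in WT and 63.9 to 71.7 in KO (log2 difference -0.06, interval -0.27 to 0.15). Aldh1a1, a retinaldehyde dehydrogenase, was not tested, with 0.0242 to 0.0293 FPKM in WT and 0.0780 to 0.193 in KO, at about 1.18 to 8.36 fragments per library.

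Genes of the same pathways that are no members were called in both directions. Of 115 such genes, 94 had a row and 63 were tested, 26 were called higher (41.3%) and 19 lower (30.2%), with a median log2 difference of 0.06. Of the 63, 58 reached 0.5 FPKM on average in both groups. Gsta1, Gsta2, Ces1d and Ces1g, counted as higher, passed the filter through the KO level alone, so their direction was bound to appear. Among 14 other NRF2 targets, 8 were called higher and 2 lower, with a median of 0.54. Abcc4, a transporter that exports conjugates and nucleotides, was at 1.41, 1.47 and 1.48 FPKM in WT and 5.60, 5.51 and 6.39 in KO (log2 difference 1.70, limma adjusted p = 1.71e-05). Pgd, an NADPH-producing enzyme of the pentose phosphate pathway, was at 24.9, 22.7 and 24.8 FPKM in WT and 62.7, 65.5 and 65.3 in KO (1.40, limma adjusted p = 7.34e-06). Fth1, Osgin1, Sqstm1, Me1, Blvrb and G6pdx were the others called higher.

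Hmox1, the inducible haem oxygenase that both NRF2 and its competitor BACH1 control, was called lower, at 125, 117 and 125 FPKM in WT and 73.0, 68.0 and 72.0 in KO (log2 difference -0.78, limma adjusted p = 3.99e-05). Abcc1, a glutathione-conjugate exporter, was also lower, at 47.5, 56.0 and 48.1 FPKM in WT and 32.7, 39.2 and 37.7 in KO (-0.46, limma adjusted p = 0.00636). Among the 22 genes tested in both chosen lists of NRF2 targets, 14 were called higher and 2 lower, beside 28.5% and 36.7% of all rows. Both lists were chosen with earlier results known, and other members may also be NRF2 targets, so these counts hold for the lists only.

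Of 7 tested genes that control NRF2, 2 were called higher, Bach1 and Cul3, and 4 lower, among them the small MAF protein gene Mafk (log2 difference -1.04, limma adjusted p = 0.000104) and the kinase gene Gsk3b (-0.76, limma adjusted p = 0.000773). The Bach1 and Cul3 calls, at 0.26 and 0.16, were lost in 5 and 4 of the 15 settings. Maff was at 22.6, 23.6 and 18.7 FPKM in WT and listed at 0, 0 and 11.1 in KO. Maff (-3.95) and Btrc (-0.30) were the others called lower, and their calls were kept in only 9 and 11 of the 15 settings.

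In a list of genes of glutathione breakdown, its cysteine supply and glutathione-linked enzymes such as glutaredoxins, 4 of 12 were called higher and 4 lower. Those called lower were Chac1, Cth, Ggt7 (log2 difference -1.45) and Ggct (-1.23), all of breakdown or cysteine supply. Those called higher were Chac2 and the glutaredoxins Glrx5, Glrx3 (0.15) and Glrx (0.11). The Glrx3 and Glrx calls were kept in only 9 and 8 of the 15 settings. Chac1, which cleaves glutathione in the cytosol and is a known stress target, was at 6.32, 7.94 and 6.79 FPKM in WT and 1.15, 1.33 and 1.17 in KO (log2 difference -2.13, limma adjusted p = 1.97e-05). Cth, which makes cysteine from cystathionine, was at 23.1, 31.1 and 25.3 FPKM in WT and 6.67, 7.77 and 7.65 in KO (-1.77, limma adjusted p = 6.88e-05). Glrx5, a mitochondrial glutaredoxin of iron-sulphur assembly, was higher, at 30.5, 30.7 and 30.6 FPKM in WT and 68.8, 70.2 and 65.3 in KO (1.14, limma adjusted p = 7.09e-06), and Chac2 rose by 0.51.

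In the remaining lists, 4 of 10 tested genes of other thioredoxins, peroxidases and their partners were called higher and 3 lower. Among them Msrb2, a mitochondrial methionine sulphoxide reductase, was higher by 0.77 and Ccs, the copper chaperone that loads Sod1, by 0.50, and Txnip, an inhibitor of thioredoxin, and mitochondrial Txn2 were lower at -0.90 and -0.45. Of 5 other transferases, Gsta1 and Gsta2, which passed the filter through KO alone, were called higher and Gstz1 and Gsto2 lower, at -0.58 and -0.38, the last lost in 7 of 15 settings. Of 9 other xenobiotic enzymes, 4 were called higher and 2 lower, with Akr1a1 at -0.52. Among those called higher are Ces1d and Ces1g, described above, which also passed the filter through KO alone. Of 4 tested oxidant producers, Maoa was higher by 0.33, and Nox4 and Ero1l were lower. Ero1l, the endoplasmic reticulum oxidase that gives hydrogen peroxide during disulphide formation, was at 788, 818 and 797 FPKM in WT and 152, 143 and 161 in KO (-2.40, limma adjusted p = 1.86e-06).

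The place of the members in the genome and the largest row of the table were set beside the members because they moved with the groups. By chromosome, the median log2 difference of tested rows ran from -0.35 on chromosome 6 to 0.37 on chromosome 10. For 19 of the 22 members called higher and 5 of the 7 called lower, the 95% interval of the difference did not hold the median of their chromosome; for Gpx4, Gstt1, Gclm, Prdx5 and Nfe2l2 it did. Mgst1 and Gstk1, both called higher, lie on chromosome 6. Within 500 kb, with each row counted once and members left out, 35.3% of 170 tested rows around the members called higher were called higher and 32.4% lower. Around those called lower, 21.0% of 81 rows were called higher and 46.9% lower, and around those not called, 20.3% of 69 were called higher and 40.6% lower, beside 28.5% and 36.7% of all rows. The part of genome position in the calls was not tested.

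The largest row, AC166252.2, made up 23.7%, 16.7% and 17.4% of all FPKM in the KO libraries, 2.10% in WT replicate 2 and 0 in WT replicates 1 and 3. Dividing each library by its sum without that row raised the median of all rows from -0.07 to 0.04, a shift of 0.11 on the log2 scale. Nqo1, Slc7a11, Srxn1, Gclc and Gsta4 stayed called higher in all 15 settings, as Sod2, Gpx1, Cbr1, Por and Keap1 stayed called lower. Ces1f also stayed called higher, but it passed the filter on low values through the KO level alone, so its direction was bound to appear.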

How the data were processed

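RNA-seq of 6 libraries, 3 WT and 3 SWELL1 KO, was read from 1 table deposited by the authors. Per the submitters' processing notes, TopHat (listed as 8.7), Cufflinks 2.02 and GRCm38 were used; no source used here gives settings, annotation or strandedness. The deposited values are taken to be FPKM: no header names the unit, but they step with gene length as Cufflinks FPKM do. Of the 31097 rows, 11679 carry a Cufflinks identifier and 659 more than 1 name. An exact 0 may be a failed estimate.

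Depth was estimated from the lowest values of 1183 genes with 1 transcript of at least 2500 bases. Rows averaging 0.5 FPKM or more over all libraries were tested on log2(FPKM + 0.5) with limma 3.58.1 (R 4.3.3, mean-variance trend, two-sided), with Benjamini-Hochberg adjustment over 10515 rows and a threshold of 0.05. Values entered as deposited, without further scaling or replicate block. The fit was tested on simulated data. Python 3.11.15, pandas 2.3.3, numpy 2.4.6, scipy 1.17.1 and matplotlib 3.10.9 did the rest.

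The members, the gene lists and the alternatives were chosen with earlier results of these data known. Per-library values are given for NRF2, KEAP1 and its targets, for the 10 largest increases and decreases among called members, and for members with shared rows; other members by range; from each other list up to 2 changes in each direction. Others named were chosen after their values were seen. Positions and promoters are from RefSeq (GRCm38.p6), where 43 members had a promoter, and shared 50-base stretches from GENCODE vM21 transcripts. Alternatives were other pseudocounts (0.1, 1), filters, 3 scalings, robust variances, the replicate block and each library left out.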

Additional observations from a re-analysis of the deposited data

How the results depend on the processing

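Of the 29 called members, 25 kept their call and direction in every setting run (14 for Aldh3a1, 15 for the others), and Gclm, Gpx4, Prdx5 and Nfe2l2 lost the call in at least 1. The 25 include Gstk1, Aox3, Ces1f and Aldh3a1, which passed the filter through the KO level alone, so their direction was bound to appear. Of the 10 not called, Gstm5, Gsto1, Prdx6 and Cbr3 passed the threshold in at least 1 setting, and 5 of the other 6 changed sign without passing it. Prdx6 changed sign after quantile normalization (0.22, limma adjusted p = 0.00458). The median of the NRF2 targets, 0.67, was 0.73 with median-ratio scaling, 0.75 with quantile normalization, 0.81 with sums that leave out the largest row, 0.70 with a pseudocount of 0.1 and 0.64 with 1. The median of the transferases, 0.75, was 0.97 with quantile normalization and 0.87 with those sums, and the NRF2 minus transferase difference of -0.08 was -0.22 with quantile normalization. The cause of these moves was not tested. Leaving out each library in turn gave 20 to 21 members called higher, 5 to 7 lower, 5 to 6 NRF2 targets and 7 to 8 transferases higher, and 6325 to 6528 rows called in all. Deviations of same-numbered libraries from their group means had correlations of 0.00, 0.01 and -0.09. These do not show how the libraries were prepared, so whether the replicate numbers pair them is not known. With the replicate block 21 members were called higher, 7 lower, and 6534 rows in all. With 3 libraries a group and values in FPKM, levels under 1 FPKM can rest on few fragments, depending on the length of the transcript. In WT, Aldh3a1 had about 3.16 to 3.18 fragments per library, and Aox1, a longer transcript, about 81.8 to 86.3.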

Other observations

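Within groups, the highest library was at least 1.5 times the lowest in 11.4% of tested rows in WT and 11.2% in KO. Among the 39 tested members this held for 4 in WT, Gstk1, Mgst3, Sod3 and Aox3, and for 3 in KO, Prdx5, Sod2 and Aldh3a1. Mgst3 and Sod3 shared their highest WT library, replicate 2, and Prdx5 and Sod2 departed in opposite directions in KO replicate 3, Prdx5 toward the WT level and Sod2 away from it.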
